A study of Drosophila melanogaster with 6 samples.

Results

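The genes described here encode structural proteins of the Drosophila cuticle and carry symbols other than Cpr, which does not make them a separate protein family. They are the genes of the Tweedle proteins, the larval cuticle proteins (Lcp), the pupal cuticle proteins (Pcp and the Edg genes), the Ccp84A cluster and the adult cuticle proteins Acp65Aa and Acp1. They were chosen by symbol, with earlier results of these data known. The FlyBase identifiers of the count table were first matched to the dm6 annotation, and 56 of 17558 identifiers belonged to them. Of these, 2 were adult, 4 pupal, 17 larval, 7 Ccp84A and 26 Tweedle genes. 3 of the 56 (Lcp1Psi, Lcp65APsi and TwdlU) were annotated as pseudogenes. Males of 2 genotypes were compared by sequencing of poly(A) RNA, with 3 libraries each. The CR11538-overexpressing genotype was Gal80ts; Tub>CR11538, and the control genotype was Gal80ts; Tub-Gal4/P{CaryP}attP40. Males of both genotypes carried the temperature-sensitive repressor Gal80ts and Gal4 driven from the tubulin promoter, a driver for most tissues. Per the study's methods, the CR11538 crosses were cultured cool and then moved to a warmer incubator, so that CR11538 was overexpressed only transiently. The methods do not describe this shift separately for control flies. Both genotypes were collected 12 h after injection of M. luteus. The transgene sat at 1 landing site, the control carried that landing site without a transgene, and no library came from uninfected flies. The study's methods say that adult males were gathered over several days, without an age for each library or genotype, and the number of flies pooled in a library was not found in them, so p-values measure the spread between these libraries.

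The insect cuticle is secreted by the epidermis as layers of chitin fibres bound by structural proteins, and each moult builds a new one under the control of ecdysone pulses. Larvae, pupae and adults use partly different sets of these proteins, for which several of the genes are named. Acp65Aa and most Lcp genes encode members of the large family with the Rebers and Riddiford chitin-binding domain, whereas the Tweedle proteins form a separate insect-specific family, dominant mutations of which make larvae and pupae short and broad. In adult flies the bulk of the cuticle has been laid down by the first days after eclosion, as tanning and the deposition of daily layers of endocuticle come to an end.

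The control libraries held 17040432 to 19237306 counts and the CR11538-overexpressing libraries 18688260 to 19652500. CR11538 itself, read as a check of the labels, stood at 2333, 3325 and 3207 counts in CR11538-overexpressing replicates 1 to 3 and at 4.88, 1.96 and 5.37 in control replicates 1 to 3. Here and below, unless raw counts are named, values are counts scaled by the TMM method to a common library size, and the libraries of each genotype are given in the order of their replicate numbers. edgeR tested 13159 genes that passed a filter on low counts. At an adjusted p under 0.05, 3844 genes (29.2%) differed, of which 1974 (15.0%) were higher and 1870 (14.2%) lower in CR11538-overexpressing flies, and the median log2 fold change over all genes tested was -0.01. Rose and fell refer below to this threshold, at any fold change.

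Of the 56 genes, 5 had no read in any library and 18 passed the filter. The 38 that did not pass held 0 to 38 raw counts in total over the 6 libraries. 10 of the 18 rose, beside the 15.0% of all genes tested that were higher, and 9 of those rose by more than 2-fold, beside 3.43% of all genes. None fell in edgeR, either at the adjusted threshold or at an unadjusted p under 0.05 (0 genes each), and 0 fell in DESeq2. The libraries of the 2 genotypes did not overlap for 11 of the 18, beside 45.2% of all genes tested. 5 of the 18 (Pcp, Lcp1, Ccp84Ad, TwdlL and TwdlS) reached the filter's limit of 0.526 CPM (counts per 1e6 counts of the library) in too few control libraries to pass without the CR11538-overexpressing ones, so that their selection favoured a rise. Of the 13 whose 3 control libraries all reached it, 6 rose, and their median log2 fold change was 0.39.

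The 56 genes together gave 17936, 14084 and 9903 counts in CR11538-overexpressing flies and 1171, 997 and 1049 in controls, a mean of 13974 ± 4018 against 1072 ± 89.5 (SD, n = 3 each) and a ratio of 13.0. Nearly all of that difference lay in the adult pair. Without it the sums were 1887, 1990 and 1559 against 841, 822 and 878, a ratio of 2.14. Acp65Aa and Acp1 made up 89.5, 85.9 and 84.3% of the counts of the 56 genes in CR11538-overexpressing flies, but 28.2, 17.5 and 16.3% in controls. Because these are whole flies, a change in the RNA of each epidermal cell and a change in the number of cells that express the genes cannot be told apart.

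The adult class rose most. Acp65Aa (FBgn0020765, dm6 chromosome 3L, 6152050 to 6152745, minus strand, 2 exons), which encodes a cuticle protein of the adult, stood at 8727, 6940 and 5053 counts in CR11538-overexpressing flies and at 55.6, 31.4 and 12.9 in controls. Every CR11538-overexpressing library lay far above every control, and the means of 6907 ± 1837 and 33.3 ± 21.4 (SD, n = 3 each) stood in a 207-fold ratio. The log2 fold change was 7.67 (SE 0.34, adjusted p = 5.06e-06), and by size of change Acp65Aa ranked 10 of 13159 genes, counted from the largest rise. Acp1 (FBgn0014454, chromosome 2L, 7740562 to 7741537, minus strand), the other adult cuticle gene, stood at 7323, 5154 and 3291 counts against 275, 143 and 158. The genotypes again did not overlap, with means of 5256 ± 2018 and 192 ± 72.2 (SD, n = 3 each), a 27.4-fold ratio. Its log2 fold change was 4.77 (SE 0.33, adjusted p = 3.31e-05), rank 30 from the largest rise. Both genes were highest in CR11538-overexpressing replicate 1 and lowest in replicate 3 of that genotype, and among controls both were highest in replicate 1. CR11538 itself was lowest in CR11538-overexpressing replicate 1, the library with the most Acp65Aa and Acp1. The gene Lsp2 overlaps CR11538 on the other strand, so its reads may affect this order if the counting ignored strand.

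**Figure D1:**
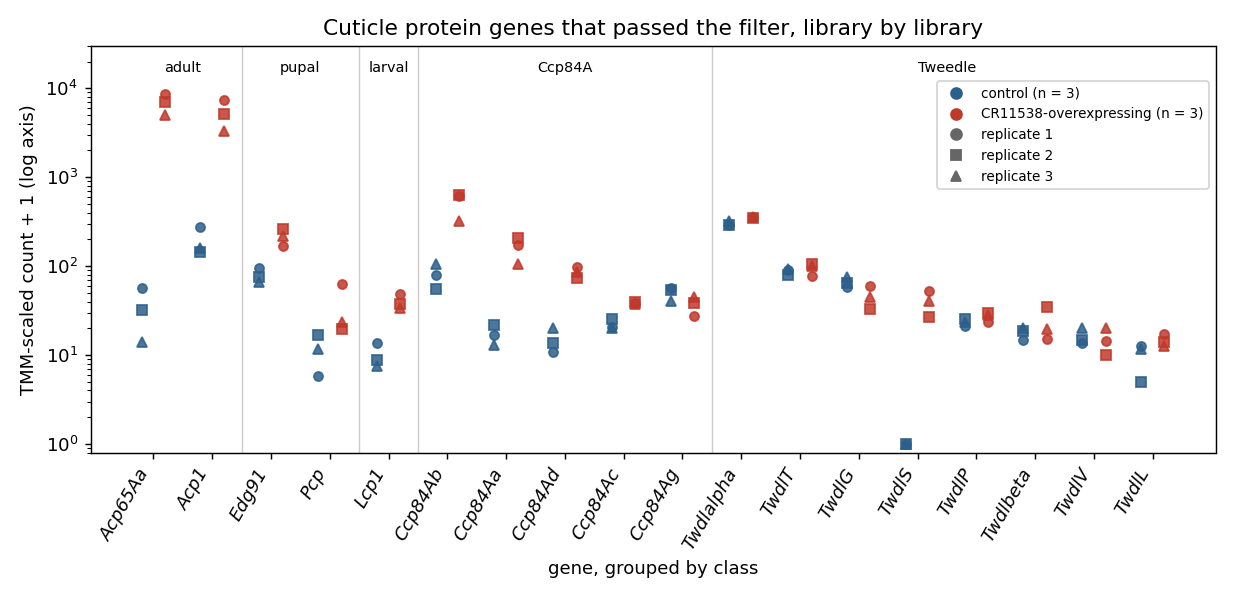
TMM-scaled counts plus 1 (log axis) of the 18 cuticle protein genes that passed the filter, grouped by class, 1 point per library, with CR11538-overexpressing and control libraries in separate colours. Acp65Aa and Acp1 lie at 3291 counts or more in every CR11538-overexpressing library and at 275 or fewer in every control, whereas the 2 genotypes overlap for TwdlT and TwdlG.

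Per kilobase of exon, which allows genes of different length to be compared, Acp65Aa averaged 11230 counts in CR11538-overexpressing flies and 54.1 in controls. On this per-kilobase scale it ranked 184 from the top among 12941 genes with a known length in CR11538-overexpressing flies and 10110 in controls. Acp1 averaged 6126 and 224 counts per kilobase, ranks 332 and 5935. Thus in controls Acp1 was the more abundant of the pair and in CR11538-overexpressing flies Acp65Aa was. Next among the 56 in CR11538-overexpressing flies came Ccp84Ab with 628 counts per kilobase (95.2 in controls) and Edg91 with 353 (129 in controls), far below the adult pair.

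Among the pupal genes 2 of 4 passed the filter and both rose, beside the 15.0% of all genes, though the selection of Pcp favoured a rise. Edg91 (FBgn0004554, chromosome 3R, 17610856 to 17611511, minus strand) is an ecdysone-dependent gene of imaginal discs, transcribed there after a pulse of the hormone. It stood at 168, 257 and 215 counts against 93.6, 74.6 and 65.5, with no overlap. Its means were 213 ± 44.7 and 77.9 ± 14.3 (SD, n = 3 each), 2.74-fold apart, and the log2 fold change was 1.45 (SE 0.19, adjusted p = 0.000728). Unlike the adult genes, Edg91 was lowest in CR11538-overexpressing replicate 1. Pcp, the pupal cuticle protein gene nested on the opposite strand within an intron of Gart (chromosome 2L, 7021682 to 7022470), stood at 62.1, 18.8 and 22.3 counts against 4.88, 15.7 and 10.7. Much of its rise came from CR11538-overexpressing replicate 1. The log2 fold change was 1.70 (SE 0.56, adjusted p = 0.0461), and without that library it was 0.97 (adjusted p = 0.146). Leaving out control replicate 1, 2 or 3 likewise ended the call, at adjusted p = 0.144, 0.0711 and 0.117. The sources used here did not state the strand setting of the counting, and reads of unspliced Gart RNA could not be told from those of Pcp if it ignored strand. The other pupal genes, Edg78E and Edg84A, had 15 and 1 raw counts in all and were not tested.

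Of the 17 larval genes, 1 passed the filter and 4 had no read. Lcp1 (FBgn0002531, chromosome 2R, 8430115 to 8431243, minus strand), a major protein of the third-instar cuticle, stood at 47.9, 36.6 and 32.9 counts against 12.7, 7.86 and 6.44. Every CR11538-overexpressing library lay above every control, with means of 39.1 ± 7.77 and 8.99 ± 3.27 (SD, n = 3 each), a 4.35-fold ratio. The log2 fold change was 2.10 (SE 0.34, adjusted p = 0.00202). Its neighbours in the 44D cluster were close to silent in both genotypes. Over the 3 libraries of a genotype, Lcp2 had 5 raw counts in CR11538-overexpressing flies and 2 in controls, Lcp3 had 4 and 7, Lcp4 had 2 and 0, and the pseudogene Lcp1Psi had 2 and 0. Lcp1 and Lcp2 are close copies, so that reads could be divided between them or lost in counting.

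The summed larval and pupal genes, 21 in number, gave 300.4, 341 and 294 counts against 137, 133 and 92.3, a mean of 312 ± 25.2 against 121 ± 24.8 (SD, n = 3 each) and a ratio of 2.58. The 2 adult genes gave 16049, 12094 and 8344 counts against 331, 175 and 171, a ratio of 54.0. Within each library, adult counts exceeded larval and pupal counts 53.4, 35.5 and 28.3 times in CR11538-overexpressing flies and 2.40, 1.32 and 1.85 times in controls. The 2 genotypes did not overlap in this ratio. The difference between classes was given no test, since only 3 of the 21 larval and pupal genes passed the filter. For a single value in 3 against 3 libraries, an exact two-sided permutation test could not go below p = 0.1.

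The 7 Ccp84A genes form a cluster of cuticle protein genes on chromosome 3R with no stage in their name. 5 of them passed the filter and 4 of these rose, beside the 15.0% of all genes tested that were higher, though the selection of Ccp84Ad favoured a rise. Ccp84Aa (FBgn0004783) stood at 174, 208 and 104 counts against 15.6, 20.6 and 11.8. The genotypes lay well apart, with means of 162 ± 53.2 and 16.0 ± 4.42 (SD, n = 3 each), a 10.1-fold ratio. The log2 fold change was 3.32 (SE 0.32, adjusted p = 0.000138). Ccp84Ab (FBgn0004782), the most abundant of the cluster, stood at 609, 638 and 324 counts against 78.0, 55.0 and 105. Its log2 fold change was 2.73 (SE 0.29, adjusted p = 0.000225), a 6.59-fold ratio of the means. These adjacent genes are close copies and may share reads, so the split of counts between them is uncertain. Ccp84Ad (FBgn0004780) stood at 95.7, 73.3 and 84.2 counts against 9.75, 12.8 and 19.3, which is a 6.05-fold ratio. Its log2 fold change was 2.60 (SE 0.27, adjusted p = 0.000209).

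Ccp84Ac and Ccp84Ag, which lie in the same cluster, differed from these genes in the size or the sign of their change. Ccp84Ac stood at 37.7, 38.6 and 36.8 counts against 19.5, 24.6 and 19.3, with no overlap, and a 1.78-fold ratio. Its rise of 0.83 on the log2 scale (SE 0.25, adjusted p = 0.0301) was called, but that call was lost in DESeq2 (adjusted p = 0.0804) and whenever 1 library of the 6 was left out (adjusted p = 0.0523 to 0.101). Ccp84Ag stood at 26.5, 37.6 and 43.6 counts against 55.6, 53.0 and 39.7, and overlapped between the genotypes. Its log2 fold change of -0.46 (SE 0.25) did not pass the test (adjusted p = 0.205). Ccp84Ae and Ccp84Af had 11 and 8 raw counts in all. Summed over the 7 genes, the cluster gave 944, 999 and 600.4 counts against 180, 167 and 199, a ratio of 4.66.

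**Figure D2:**
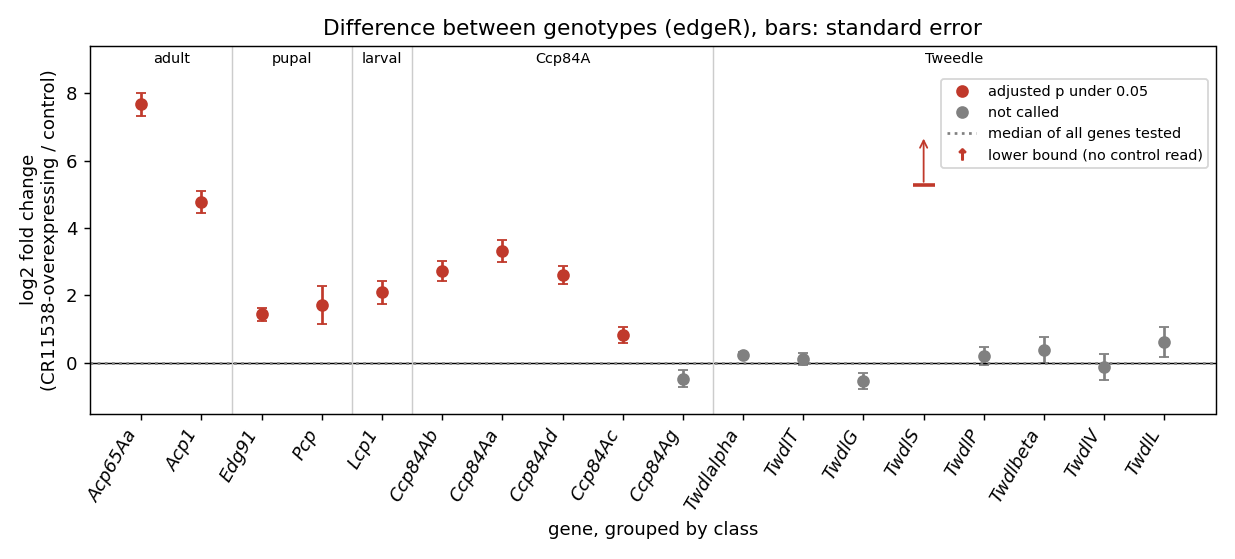
Log2 fold change (CR11538-overexpressing over control) of the 18 tested cuticle genes, grouped by class and coloured by whether they passed the test, with bars of 1 SE from the edgeR fit. The adult pair stands at 7.67 and 4.77, Ccp84Aa, Ccp84Ab and Ccp84Ad between 2.60 and 3.32, and the Tweedle genes other than TwdlS between -0.54 and 0.63; TwdlS had no control read, so it has no SE and its arrow starts at a lower bound of 5.26.

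The Tweedle family was the largest class. Of its 26 genes 8 passed the filter, and of these 1 rose and 7 did not pass the test, a share near the 15.0% of all genes tested that were higher. The median log2 fold change of the 8 was 0.23. Summed over the family there were 642, 651 and 664 counts against 523, 522 and 587, a ratio of 1.20. Most of these counts came from Twdlalpha, a gene on the X chromosome that stood at 353, 349.5 and 358 counts against 288, 289 and 317. Its libraries did not overlap between the genotypes and hardly varied within them, but its log2 fold change of 0.25 (SE 0.08) fell just short of the threshold (adjusted p = 0.0505). It passed with DESeq2's size factors in edgeR (adjusted p = 0.0448) and with at least 10 counts required in every library (0.0494). 72 bases of Twdlalpha lie within CG32568 on the same strand.

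TwdlS (FBgn0039443, chromosome 3R, 26636688 to 26637557, plus strand) was the Tweedle gene that rose. It had 50, 26 and 41 raw counts in CR11538-overexpressing flies and 0 in each control library. Against a limit of 3 counts over the control group, it was at least 38.4-fold higher (adjusted p = 0.000556). TwdlT, which lies within an intron of RYa-R on the same strand, stood at 77.4, 104 and 98.8 counts against 88.7, 77.6 and 92.3. The genotypes overlapped, and its log2 fold change was 0.12 (adjusted p = 0.645). TwdlG stood at 59.1, 31.7 and 43.6 counts against 57.5, 63.8 and 74.1, a log2 fold change of -0.54 (SE 0.25, adjusted p = 0.131). Without CR11538-overexpressing replicate 1, the library in which it overlapped the controls, TwdlG was called lower at -0.78 (adjusted p = 0.0407). The remaining tested members, TwdlP, Twdlbeta, TwdlV and TwdlL, averaged under 30 counts in both genotypes, with log2 fold changes of 0.21, 0.39, -0.13 and 0.63 and adjusted p of 0.584, 0.474, 0.834 and 0.315.

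18 Tweedle genes did not pass the filter, with at most 38 raw counts in all, and low reads left most differences undetectable at this depth. TwdlH had 22 raw counts over the CR11538-overexpressing libraries and 1 over the controls, a ratio of 21.6 after scaling (95% exact interval 3.50 to 893, counting error only). TwdlR had 21 and 1, a ratio of 20.7 (3.32 to 854). Both were below the filter in edgeR, and when no filter was used both were called higher (adjusted p = 0.0159 and 0.0268), as they were in DESeq2 (0.0184 and 0.0274). TwdlN had 9 raw counts against 0, at least 2.95-fold higher against the same limit of 3 counts. TwdlD, in which a dominant mutation shortens the larva and pupa, had 24 against 11 raw counts, most of them in CR11538-overexpressing replicate 2.

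These Tweedle genes share a place in the genome that their selection by name did not use. The cluster at 97C (chromosome 3R, 26619118 to 26641054) holds 12 Tweedle genes and no other annotated gene. TwdlN, TwdlH, TwdlR and TwdlS lie next to each other in it and together had 169 raw counts over the CR11538-overexpressing libraries and 2 over the controls. The other 8 genes of the cluster together had 160 and 130. This run of 4 was chosen after its values had been seen and was given no test.

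The adult gene Acp65Aa lies at 1 end of a cluster at 65A (chromosome 3L, 6130386 to 6152745). Wholly within it also lie 11 Lcp65A genes and 5 Cpr genes. The antisense RNA gene CR46005 reaches into the other end and overlaps 543 exon bases of Lcp65Ag3 on the opposite strand. Reads of Lcp65Ag3 could not be told from those of CR46005 if the counting ignored strand. The Lcp65A genes together had 40 raw counts over the CR11538-overexpressing libraries and 48 over the controls, beside 20798 and 101 for Acp65Aa. Lcp65Aa, only 246 bases from Acp65Aa, had 6 raw counts against 0. Lcp65Ag2 had 8 raw counts against 24. It was called lower only when control replicate 3, where it had 0, was left out (log2 fold change -2.10, adjusted p = 0.0400). Lcp65Ag1, Lcp65Ag2 and Lcp65Ag3 are close copies that may share reads. Among the Cpr genes of the cluster Cpr65Au fell, with 5205 raw counts against 7482 (log2 fold change -0.54, adjusted p = 0.0150).

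In the 84A cluster (chromosome 3R, 6684445 to 6704903) the genes lie in the order Edg84A, Ccp84Ag, Af, Ae, Ad, Ac, Ab and Aa. Raw counts in that order were 1, 109, 5, 8, 255, 114, 1577 and 488 over the CR11538-overexpressing libraries and 0, 148, 3, 3, 41, 63, 234 and 48 over the controls. The 4 genes that rose were thus the 4 Ccp84A genes at 1 end of the cluster. CR33938, which lies among them between Ccp84Ac and Ccp84Ab, had 9 raw counts against 21.

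**Figure D3:**
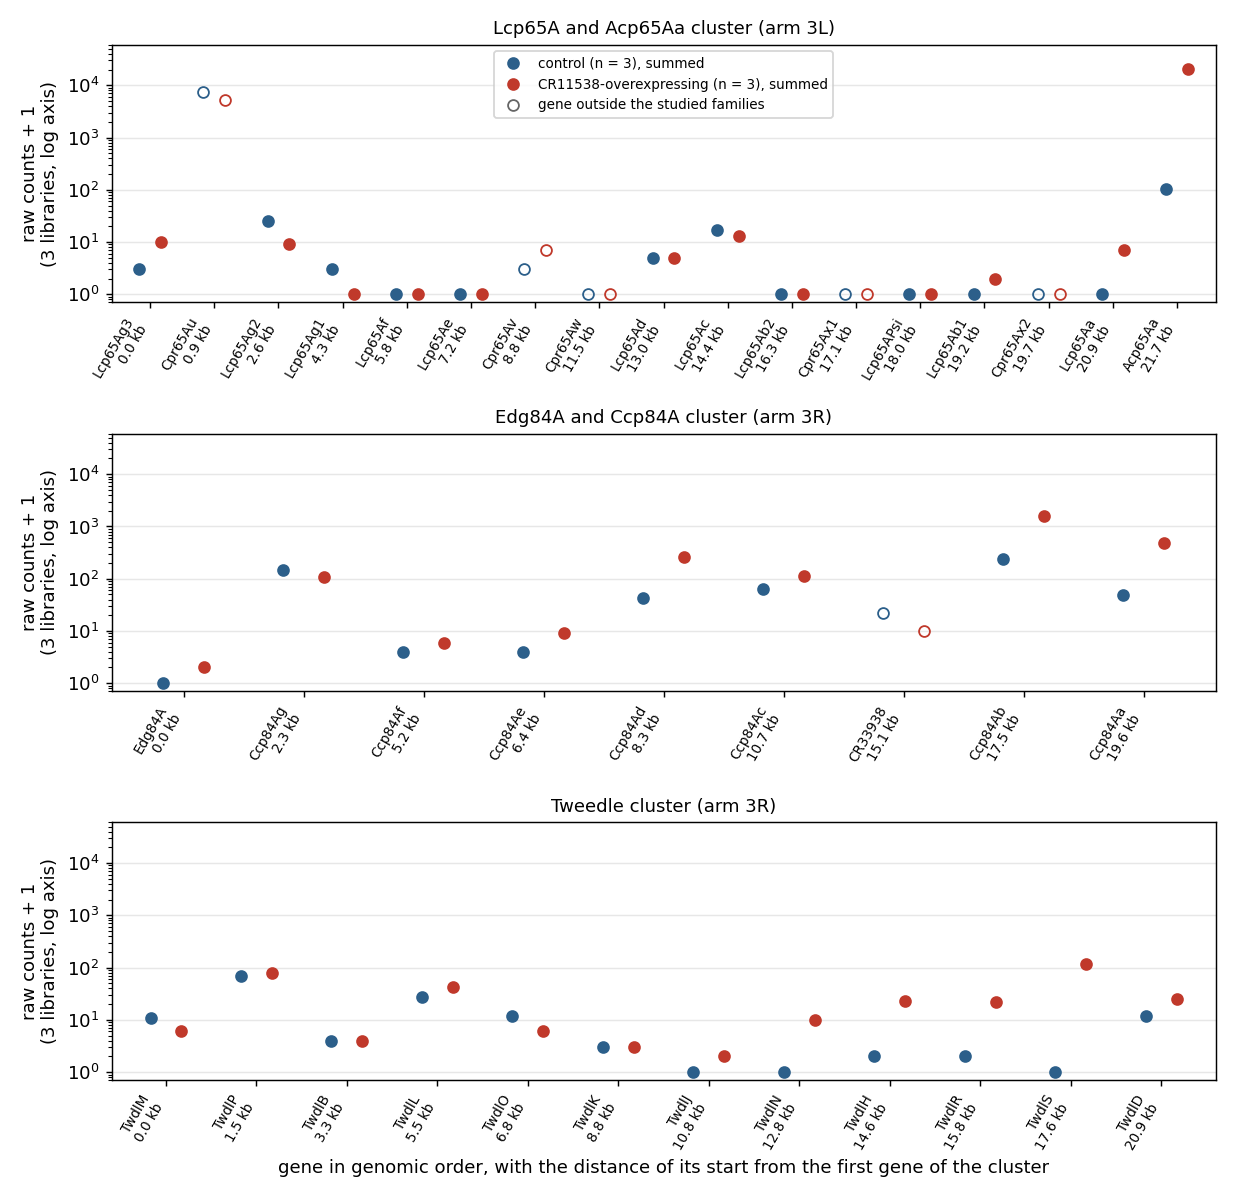
Raw counts summed over 3 libraries of each genotype, plus 1 (log axis), for every gene lying wholly within the clusters at 65A, 84A and 97C. Genes are in chromosomal order. Acp65Aa stands alone at its end of the 65A cluster with 20798 counts against 101, Ccp84Ad, Ac, Ab and Aa are higher in CR11538-overexpressing flies, and TwdlN to TwdlS form a run with 169 counts against 2.

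The CR11538-overexpressing libraries did not vary alike over the 10 genes that rose. Replicate 1 was the highest of that genotype for 6 of them and replicate 2 for 4, and replicate 3 was the lowest for 6. The highest library exceeded the lowest by 1.05 times for Ccp84Ac and by 3.30 times for Pcp. The adult pair and Pcp peaked in replicate 1, whereas Ccp84Aa, Ccp84Ab, Ccp84Ac and Edg91 peaked in replicate 2.

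Other genes of the cuticle were described from lists of genes outside the 56. These lists were chosen with earlier results of these data known, so their counts are not an independent check. Over all genes tested, 15.0% were higher and 14.2% lower, the shares to set beside each count below. Among the 70 Cpr genes 40 were tested, of which 21 rose and 3 fell, with a median log2 fold change of 1.23. Cpr97Ea, Cpr64Ac, Cpr62Bc and Cpr47Ea rose, with log2 fold changes of 4.63, 5.19, 4.50 and 6.01. In the controls Cpr64Ac had 4, 9 and 3 raw counts and Cpr47Ea 10, 10 and 1. These and some other genes of the lists below, among them dyl, m and y, could not pass the filter on the control libraries alone. Their selection thus favoured a rise, and the counts and medians of the lists include such genes. Of 19 tested genes that make, assemble or turn over chitin, 13 rose and the others did not pass the test (median 1.28), among them the chitin synthase gene kkv (1.995), exp (2.83), which is needed for chitin deposition, the chitinase gene Cht6 (2.80) and Gasp (1.56), which encodes a chitin-binding protein. The apical matrix proteins with a zona pellucida domain shape the matrix at the epidermal surface, and 4 of 7 rose (dyl 2.39, m 1.41, pot 0.83, qsm 0.61). In tanning, 6 of 10 genes rose and 1 fell: y, needed for black melanin, had a log2 fold change of 3.78, e (beta-alanyl-dopamine synthase) 0.97 and ple (tyrosine hydroxylase) 0.79, whereas yellow-f, a dopachrome conversion enzyme, fell by 1.003.

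Of 14 tested ecdysone-responsive and moulting regulators 5 fell (4 in DESeq2), beside 14.2% of all genes tested, and the other 9 missed the threshold, with a median log2 fold change of -0.18. Those that fell included usp, the partner of the ecdysone receptor (-0.46), Eip75B (-0.43), Eip93F (-0.37) and Kr-h1, a target of juvenile hormone (-0.72). Of 8 hormone and receptor genes of eclosion and hardening 4 were tested, and 0 were called in edgeR, with 0 at an unadjusted p under 0.05 and 1 higher in DESeq2. Of 3 epidermal transcription factor genes 1, vvl, fell (-0.25, adjusted p = 0.0448), and 0 were lower in DESeq2.

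**Figure D4:**
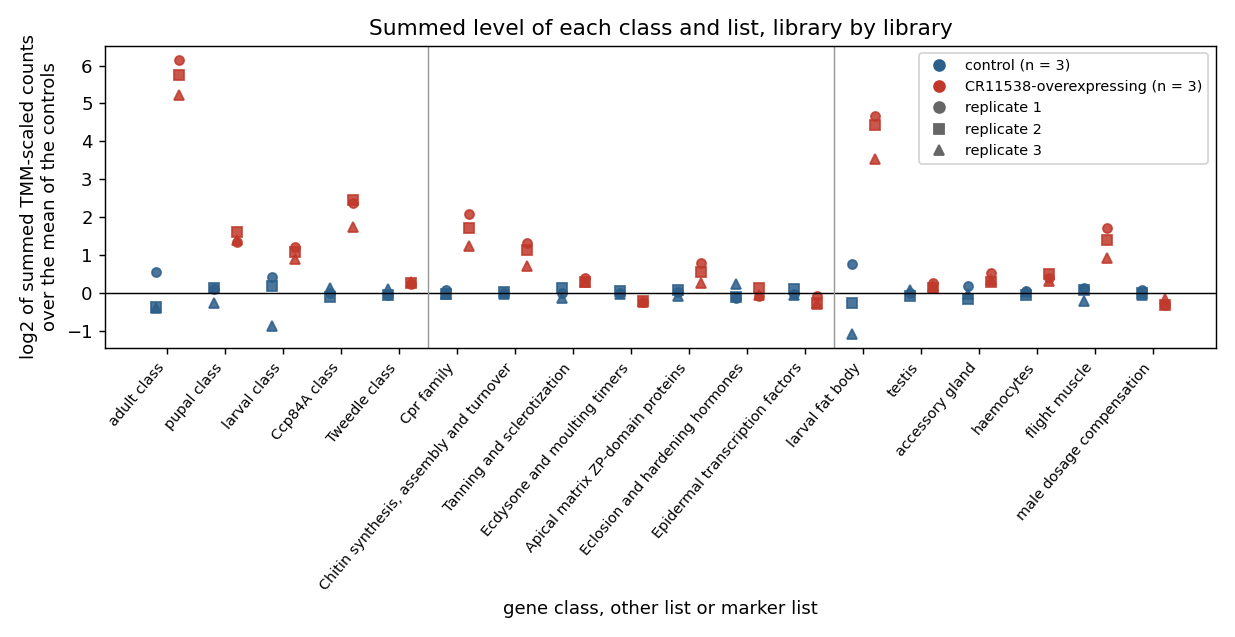
Log2 of each library's summed TMM-scaled counts over the control mean, for the classes of cuticle genes and for other gene lists, 1 point per library. The adult class reaches 5.21 to 6.15 in the CR11538-overexpressing libraries. In that genotype the order replicate 1, 2, 3 from high to low is shared by the adult and larval classes, the Cpr family and the chitin, tanning and ZP-domain lists. The epidermal transcription factors, which lie below the control mean, and the larval fat body and flight muscle markers show it too, and the other classes and lists do not.

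Among the markers of other tissues, those of larval fat body and flight muscle rose most. All 5 larval fat body markers rose (Lsp1alpha, Lsp1beta, Lsp1gamma, Lsp2 and Fbp1, median log2 fold change 4.39), beside 15.0% of all genes tested. Lsp1alpha and Fbp1, with 4 and 5 raw counts in control replicate 3, could not pass the filter on the control libraries alone. Their selection thus favoured a rise. The sum of the 5 ranged from 3821 to 8498 counts in CR11538-overexpressing flies and from 156 to 568 in controls. Lsp2 overlaps CR11538 on the other strand, so its reads may not be told from those of the transgene, and the other 4 do not. Like the adult class, this sum was highest in CR11538-overexpressing replicate 1 (4.67 on the log2 scale over the control mean), lowest in replicate 3 of that genotype (3.52), and among controls highest in replicate 1. All 5 genes of the flight muscle list (Act88F, fln, TpnC4, Tm2 and up) also rose (median 1.15), beside the same 15.0% of all genes. Their sums were 65936 to 115502 counts against 30135 to 38308. Whether each of the 5 is restricted to flight muscle was not checked here. The glue genes of the larval salivary gland, by contrast, were near 0, with at most 1.02 counts summed in a CR11538-overexpressing library and 1.95 to 7.52 in a control library. The labels name adult males. Testis markers summed to 27776 to 30719 counts against 24264 to 26806, and 4 of 6 tested rose (median 0.25). Accessory gland markers summed to 35598 to 41728 against 26193 to 32763, and 3 of 5 rose (median 0.35). Haemocyte markers summed to 8321 to 9459 against 6510 to 6905, and 2 of 3 tested rose (median 0.38). In each of these lists 0 fell, and 15.0% of all genes tested were higher. Of 3 genes of male dosage compensation, the RNA roX1 fell by 0.30 on the log2 scale. The others did not pass the test: roX2 leaned higher (0.25, adjusted p = 0.119) and msl-2 lower (-0.19, adjusted p = 0.0731). The part of these tissues in the rise of the cuticle genes was not tested.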

How the data were processed

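Per the labels and the study's methods, the authors used HISAT2 2.0.5 (dm6) on paired reads, and the deposited values are raw counts per gene from featureCounts 1.5.0-p3, without normalization or pooling. The strand setting and annotation release were not given in the sources used here. Of 17558 identifiers, 17252 were named by Ensembl release 115. Depth was 17040432 to 19652500 counts, and counting error alone is covered by the intervals. Replicates of a genotype never agreed within sampling noise, so all 6 libraries were used.

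Genotypes were compared with edgeR 4.0.16 (R 4.3.3): filterByExpr, TMM scaling and the quasi-likelihood test with genotype as the only term, adjusted by Benjamini-Hochberg over 13159 genes. SEs are the unshrunk coefficient divided by the square root of F. Members were named library by library if their adjusted p was under 0.05 or their mean at least 50 counts, and others by range. Up to 4 genes per other list, those with the lowest adjusted p, were named. Members and lists were chosen with earlier results of these data known. Alternatives were DESeq2 1.42.0, its size factors, library totals, no filter, at least 10 counts in every library, a replicate block, each library left out, and a 2-fold threshold. 5 list genes matched no identifier, and these genes and protein and promoter sequences were not analysed here. Tables and figures were made with Python 3.11.15, and the scripts were tested on simulated data.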

Additional observations from a re-analysis of the deposited data

How the results depend on the processing

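The number of cuticle genes that rose was 10, and 8 to 12 under the other settings: 11 in DESeq2 and with its size factors, 10 with library totals only, 12 without a filter, 8 with at least 10 counts in every library, 9 over 2-fold and 8 to 9 with each library left out in turn. Acp65Aa, Acp1, Ccp84Aa, Ccp84Ab, Ccp84Ad and Edg91 were called higher in all 12 settings other than the 2-fold threshold, and Lcp1 and TwdlS in every one that tested them. The number that fell was 0, and 0 to 1 with each library left out, when TwdlG (without CR11538-overexpressing replicate 1) or Lcp65Ag2 (without control replicate 3) was called. With the replicate number as a block (replicate block), 9 cuticle genes rose, Pcp being lost (log2 fold change 1.60, adjusted p = 0.0564), and 2061 genes in all were higher and 1924 lower. Same-numbered libraries correlated only weakly in their deviations from the genotype means, at 0.127, 0.035 and 0.071, and the other pairs at -0.117 to 0.046. Each CR11538-overexpressing library correlated best with its same-numbered control. Control replicate 2, however, correlated best with CR11538-overexpressing replicate 3 (0.046). These values cannot decide whether the numbers pair the libraries, and the main fit did not pair them. Over all genes, 451 were higher and 162 lower past 2-fold, and 1193 to 2024 higher and 1146 to 1889 lower with each library left out. No direction reversed. Of the 56 genes, 38 were too low for the filter, and of these TwdlH and TwdlR were called higher without a filter and in DESeq2.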
